A study of Mus musculus with 9 samples.

Results

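Open chromatin was described around 10 genes of the naive pluripotency network that accompany its core regulators in mouse embryonic stem (ES) cells: Tfcp2l1, Prdm14, Tbx3, Zfp42, Dppa3, Dppa5a, Tcl1, Nr5a2, Sall4 and Tdh. They were taken by name from a list, with no threshold on a measured value, and are 10 of the 21883 protein-coding genes of the mm10 RefSeq table. Accessible DNA was tagged with Tn5 transposase and sequenced (ATAC-seq) in 3 lines of E14 ES cells, all of the variant named TOT2N. The TetR-MYBTA line held a stably integrated TetR-MYBTA construct, the TetR line held a stably integrated TetR construct, and the WT line held neither. Each line had 3 libraries. The labels do not expand TOT2N or MYBTA, name no treatment or time, and do not say how many clones stand for a line. By the series title, the study concerned sustained action of MYB, the enhancers it activates and their contacts with promoters.

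Naive pluripotency is the state of the early epiblast, held in culture by LIF signalling through STAT3 and by a network of transcription factors that bind one another's enhancers. Around the core regulators lie transcription factors that widen the network, chromatin and germline factors, and genes of metabolism and signalling that mark the state. In such a network an ATAC-seq peak at a gene end or at a distance marks a promoter or a candidate enhancer that is open, and not the amount of RNA made.

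The libraries held 16.4 M to 23.0 M tags, of which 5.48 to 9.78% lay in peaks, and 45136 to 70230 peaks each. Peaks of all libraries that shared at least 1 bp were joined into 116362 union regions, and every library had a peak in 26020 of them. TetR-MYBTA replicate 3 had the fewest peaks. Because the lists differ in length, peaks near a gene are given both as numbers and as a share, the peaks in its window per 10000 peaks of that library. Peaks at gene ends were seen in all 9 libraries for Sox2 and Klf4, in 4 for Nanog, in 2 for Pou5f1 and in 0 for Esrrb. Of 14 marker genes of other cell types, 2 had such a peak in all 9 libraries (Tal1 and Cd34) and 2 had it in 0 (Gata4 and Sox17). Cdx2, Col1a1 and Col1a2 had it in 8, Gata6, Foxa2, Sox1 and Pax6 in 6, Myod1 in 3, and T and Elf5 in 1. Gene-end peaks of these markers therefore do not tell the cell types apart. Of the 22 other naive network genes listed, 14 had it in all 9 libraries, and of the 10 members 6 had it. Among all protein-coding genes 44.2% had it in all 9 and 37.5% in 0.

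Starts of transcription are shown first for Tfcp2l1, Tcl1, Zfp42 and Nr5a2, the 4 members that had a reference sequence. They differ in whether a peak covers them. Each sequence is the RefSeq window of GRCm38.p6 from 250 bases before to 50 bases after an annotated start, read 5′ to 3′ along the gene, and capitals mark bases inside a union region with a peak.
Tfcp2l1, chr1:118627695-118627994, plus strand: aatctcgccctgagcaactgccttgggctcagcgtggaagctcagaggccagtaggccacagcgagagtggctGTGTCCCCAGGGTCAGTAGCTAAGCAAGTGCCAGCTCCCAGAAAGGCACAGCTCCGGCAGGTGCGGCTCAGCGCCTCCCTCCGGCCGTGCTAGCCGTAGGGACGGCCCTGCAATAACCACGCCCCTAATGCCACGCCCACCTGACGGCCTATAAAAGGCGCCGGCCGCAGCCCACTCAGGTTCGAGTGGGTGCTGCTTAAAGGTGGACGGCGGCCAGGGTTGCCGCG
Tcl1, chr12:105222688-105222987, minus strand: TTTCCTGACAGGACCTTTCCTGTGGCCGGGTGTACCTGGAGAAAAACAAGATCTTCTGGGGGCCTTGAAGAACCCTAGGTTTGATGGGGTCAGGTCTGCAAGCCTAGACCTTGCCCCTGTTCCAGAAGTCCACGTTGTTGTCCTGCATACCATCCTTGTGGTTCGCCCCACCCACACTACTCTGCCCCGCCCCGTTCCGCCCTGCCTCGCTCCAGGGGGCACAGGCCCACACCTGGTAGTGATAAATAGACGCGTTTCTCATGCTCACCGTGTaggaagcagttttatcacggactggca
Zfp42, chr8:43306960-43307259, minus strand: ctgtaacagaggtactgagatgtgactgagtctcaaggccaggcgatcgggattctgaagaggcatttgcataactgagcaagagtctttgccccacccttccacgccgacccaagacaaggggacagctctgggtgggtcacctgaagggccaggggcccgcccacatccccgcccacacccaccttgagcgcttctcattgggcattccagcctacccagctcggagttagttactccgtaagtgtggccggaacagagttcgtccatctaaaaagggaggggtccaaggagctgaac
Nr5a2 outer start, chr1:136960399-136960698, minus strand: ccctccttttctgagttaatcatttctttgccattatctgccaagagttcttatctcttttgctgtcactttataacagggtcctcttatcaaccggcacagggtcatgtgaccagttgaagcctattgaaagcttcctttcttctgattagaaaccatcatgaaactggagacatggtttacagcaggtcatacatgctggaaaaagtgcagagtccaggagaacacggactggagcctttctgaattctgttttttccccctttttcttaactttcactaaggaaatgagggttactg
Nr5a2 inner start, chr1:136953581-136953880, minus strand: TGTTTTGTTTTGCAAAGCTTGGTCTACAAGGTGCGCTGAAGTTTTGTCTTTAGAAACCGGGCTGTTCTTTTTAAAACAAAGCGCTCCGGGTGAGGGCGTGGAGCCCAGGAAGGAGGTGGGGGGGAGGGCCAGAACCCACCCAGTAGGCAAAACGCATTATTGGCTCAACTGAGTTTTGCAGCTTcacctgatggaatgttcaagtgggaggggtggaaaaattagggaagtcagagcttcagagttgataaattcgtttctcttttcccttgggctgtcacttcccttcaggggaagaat
The peak region covered 227 of the 300 bases at Tfcp2l1 and was found in all 9 libraries. At the inner start of Nr5a2 the region covered 184 bases and was found in all 9. At Tcl1 it covered 273 bases and joined peaks of 6 libraries. The Tcl1 region is 560 bp long and joins peaks of 194 to 209 bp, so not every one of these libraries need cover the start. At Zfp42 and at the outer start of Nr5a2, 0 bases lay under a peak of any library. The covered and uncovered windows therefore belong to different genes and, within Nr5a2, to different starts of the same gene.

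Base composition differed between these windows. The Tfcp2l1 window was 65.3% G or C with 21 CpG pairs, and the outer start of Nr5a2 was 42.0% G or C with 2 CpG pairs. The inner start of Nr5a2 (49.0%, 7 CpG pairs), Tcl1 (56.7%, 11 CpG pairs) and Zfp42 (57.7%, 11 CpG pairs) lay nearer the median of the 32851 RefSeq windows, 52.7% and 7. The Zfp42 window thus had no peak at the CpG number of Tcl1, which had one.

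Short motifs were searched on both strands of these windows, counting positions from 1 at the 5′ end. The letters AACNG of a MYB site were in all 5 windows and in 80.3% of all windows, so their presence separates nothing. The letters GGGNGTGG of a KLF site were in 3 windows against 17.6% of all windows. At bases 190 to 197 and 204 to 211 of Tfcp2l1 they lay under a peak, on the reverse of the printed strand. At 94 to 101 of the inner Nr5a2 start they lay under a peak, on the printed strand. At 176 to 183 of Zfp42 they lay under none, on the reverse strand. The letters ATGCAAAT of an OCT site, found in 1.74% of all windows, were in Zfp42 at bases 65 to 72, on the reverse strand. TATAAA, in 13.6% of all windows, was at bases 223 to 228 of Tfcp2l1, under the peak and on the printed strand. It was also at 70 to 75 of the outer Nr5a2 start, on the reverse strand, where base 75 is the first of an AACNG match on the printed strand. The letters of a SOX site (CATTGT, 12.6% of windows), an ESRRB site (AAGGTCA, 4.72%), a STAT3 site (TTCCNGGAA, 1.15%) and a TFCP2L1 site (3.44%) were in 0 of the 5. A match is a string of letters and says nothing of binding.

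Peaks within 1 kb of either gene end marked the same genes in each line, apart from Tcl1. Tfcp2l1, Prdm14, Tbx3, Dppa5a, Sall4 and Tdh had one in all 9 libraries, 60.0% of the members, against 44.2% of all protein-coding genes. Zfp42, Dppa3 and Nr5a2 had one in 0 libraries, 30.0% of the members, against 37.5% of all genes. At Tcl1 it was found in TetR-MYBTA replicates 1 and 2, in TetR replicate 2 and in all 3 WT libraries. The gene-end regions lay at chr1:118627768-118628016 (Tfcp2l1), chr1:13127040-13127350 (Prdm14), chr5:119670633-119671034 (Tbx3), chr9:78368076-78368321 (Dppa5a), chr2:168767142-168767376 (Sall4), chr14:63508718-63509025 (Tdh) and chr12:105222715-105223274 (Tcl1). A second region lay 0.745 kb beyond the upper-coordinate end of Prdm14, at chr1:13127908-13128282, in 3 TetR-MYBTA, 2 TetR and 2 WT libraries. Another, 0.886 kb beyond the lower-coordinate end of Dppa5a at chr9:78365966-78366166, was in WT replicate 3 alone. At 2.5 kb in place of 1 kb, 8 members had a peak near an end in all 3 libraries of each line.

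Within 50 kb of the 10 genes lay 146 union regions. Of these, 35 were found in every library, 40 in 1 library and 71 in 2 to 8. These shares, 24.0% in all 9 libraries and 27.4% in 1, were close to the 22.4% and 26.0% of all union regions. Of the 146, 9 lay at a gene end, 29 inside a member and 108 outside it. Their median length was 233 bp, against 237 bp for all regions. Dppa3 had 23 regions and Nr5a2 had 24, the most, while Tcl1 had 6 and Zfp42 had 9, with 0 of either found in all 9 libraries. Other genes lie in some windows, so a region near a member need not belong to it: Clasp1 near Tfcp2l1, Ncoa2 near Prdm14, Apobec1 and Gdf3 near Dppa3, Omt2b, Gsta2, Ooep and Ddx43 near Dppa5a, Tcl1b5, Tcl1b3 and Tcl1b4 near Tcl1, Atp9a near Sall4, and Fam167a and Mtmr9 near Tdh. The genes of the Tcl1 cluster are related copies, so short reads may be shared between them.

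**Figure D1:**
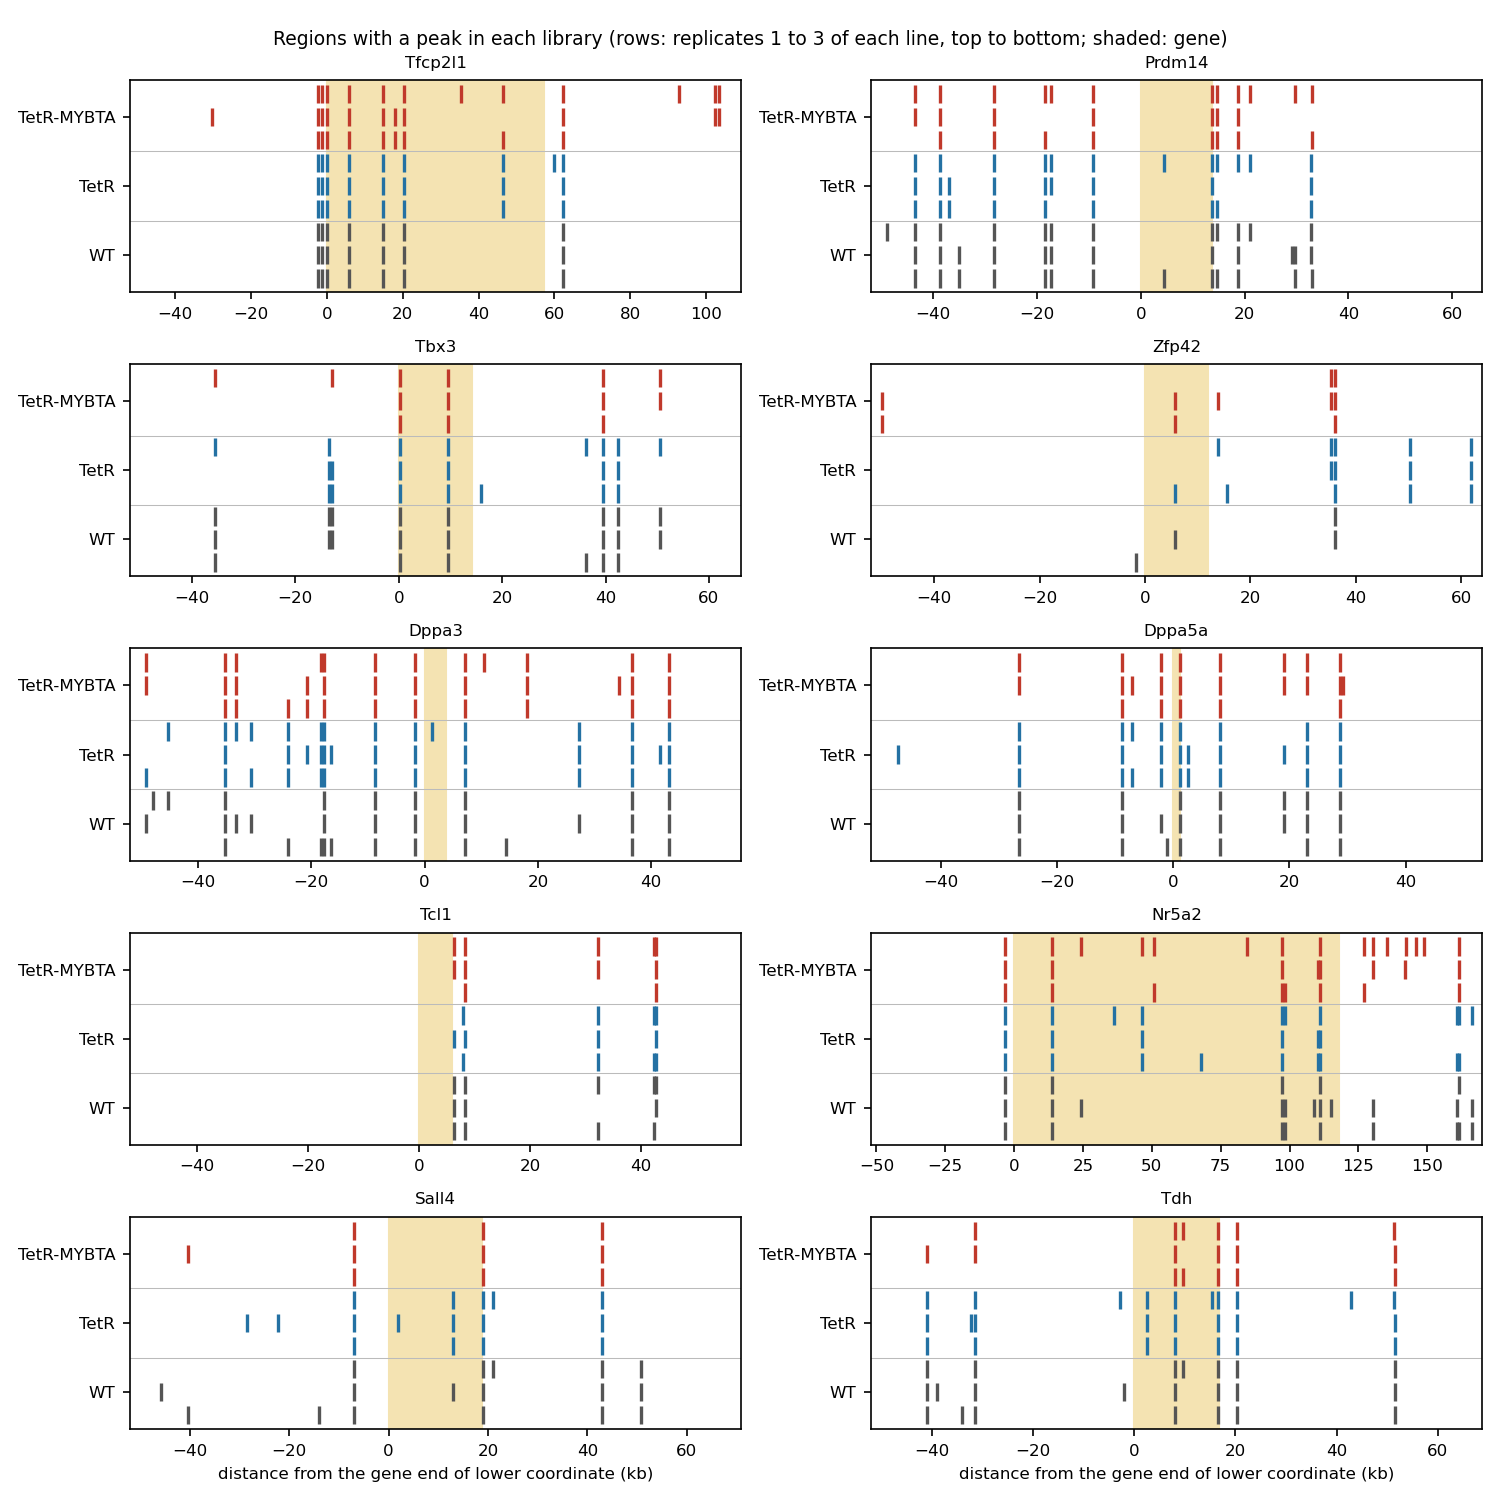
Union regions with a peak in each library around the 10 genes, with distance in kb from the gene end of lower coordinate on the horizontal axis, the gene body shaded and 1 row per library. Tfcp2l1 has a peak at its gene end in every row, and the rows of Zfp42, Dppa3 and Nr5a2 have none within 1 kb of an end.

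The first comparison asked whether the lines differ in how many peaks surround these genes. Summed over the 10 windows, the TetR-MYBTA libraries had 81, 71 and 57 peaks, the TetR libraries 85, 75 and 74, and the WT libraries 66, 76 and 71. Per 10000 peaks, that was 12.9 ± 0.595 in TetR-MYBTA, against 12.0 ± 0.615 in TetR and 11.9 ± 0.197 in WT (mean ± SD, n = 3 each). The share was 1.07 times that of TetR and 1.09 times that of WT in TetR-MYBTA, and TetR had 1.01 times the share of WT. By library the share was 13.6, 12.5 and 12.6 in TetR-MYBTA, 12.1, 11.4 and 12.6 in TetR, and 11.7, 12.0 and 11.9 in WT. The TetR-MYBTA libraries were all above the WT libraries and overlapped the TetR libraries, and the TetR and WT libraries overlapped. Within the sum, some members were higher and others lower. The largest differences in share from the other 6 libraries were at Tfcp2l1 (0.75) and Nr5a2 (0.563), both on distal chromosome 1. The 5 Mb on either side of their windows held 2.0 and 1.42 times the share of the other 6 libraries. With peaks of the same chromosome as denominator, the summed ratios of TetR-MYBTA to TetR and to WT were 0.979 and 0.997.

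Gene by gene, the ranges of the 3 libraries of each line were compared, since 3 against 3 libraries cannot reach an exact permutation p below 0.10. In TetR-MYBTA against TetR, Tfcp2l1 was higher without overlap, 1 of 10 members against 10.2% of genes, and Tdh was lower, 1 of 10 against 17.9%. In TetR-MYBTA against WT, Tfcp2l1, Zfp42 and Dppa3 were higher, 3 of 10 against 7.88%, and Tbx3, Sall4 and Tdh were lower, 3 of 10 against 20.2%. In TetR against WT, Zfp42 and Dppa3 were higher, 2 of 10 against 8.63%, and Prdm14 was lower, 1 of 10 against 11.5%. Against the 6 TetR and WT libraries together, Tfcp2l1 was higher in TetR-MYBTA, 1 of 10 against 4.47%, and Tdh was lower, 1 of 10 against 10.2%. By number of peaks some of these separations were absent. Zfp42, Dppa3 and Tbx3 then overlapped between TetR-MYBTA and WT, and Prdm14 between TetR and WT. Tfcp2l1 overlapped with TetR and with the other 6 libraries. The others held by number: Tdh in each comparison named, Tfcp2l1 and Sall4 against WT, and Zfp42 and Dppa3 in TetR against WT. The median ratio of shares over the 10 members was 1.04 against TetR, 1.06 against WT and 1.04 against the other 6 libraries, and that over all tested genes was 0.963, 0.95 and 0.952. For TetR against WT it was 0.987 over the members and 0.972 over all genes. The comparisons of TetR-MYBTA with TetR and with WT share the TetR-MYBTA libraries.

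The test for TetR-MYBTA against the other 6 libraries was a two-sided exact permutation test over the 84 splits, with Benjamini-Hochberg adjustment over 20439 genes. It called 0 members and 0 genes at an adjusted p under 0.05. At an unadjusted p under 0.05 it had 5 of the 10 members, against 23.4% of all genes, and the smallest p the design allows, 0.0119, was reached by Tfcp2l1 and Tdh, each with an adjusted p of 0.112. That is the lowest value any gene had, and 2180 genes share it. Since p cannot go lower, a call needs many more genes at the smallest p than reached it. The 0 calls therefore do not show that the lines are alike. For Prdm14, Zfp42, Dppa5a, Tcl1 and Nr5a2 the exact permutation p lay between 0.131 and 0.905.

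**Figure D2:**
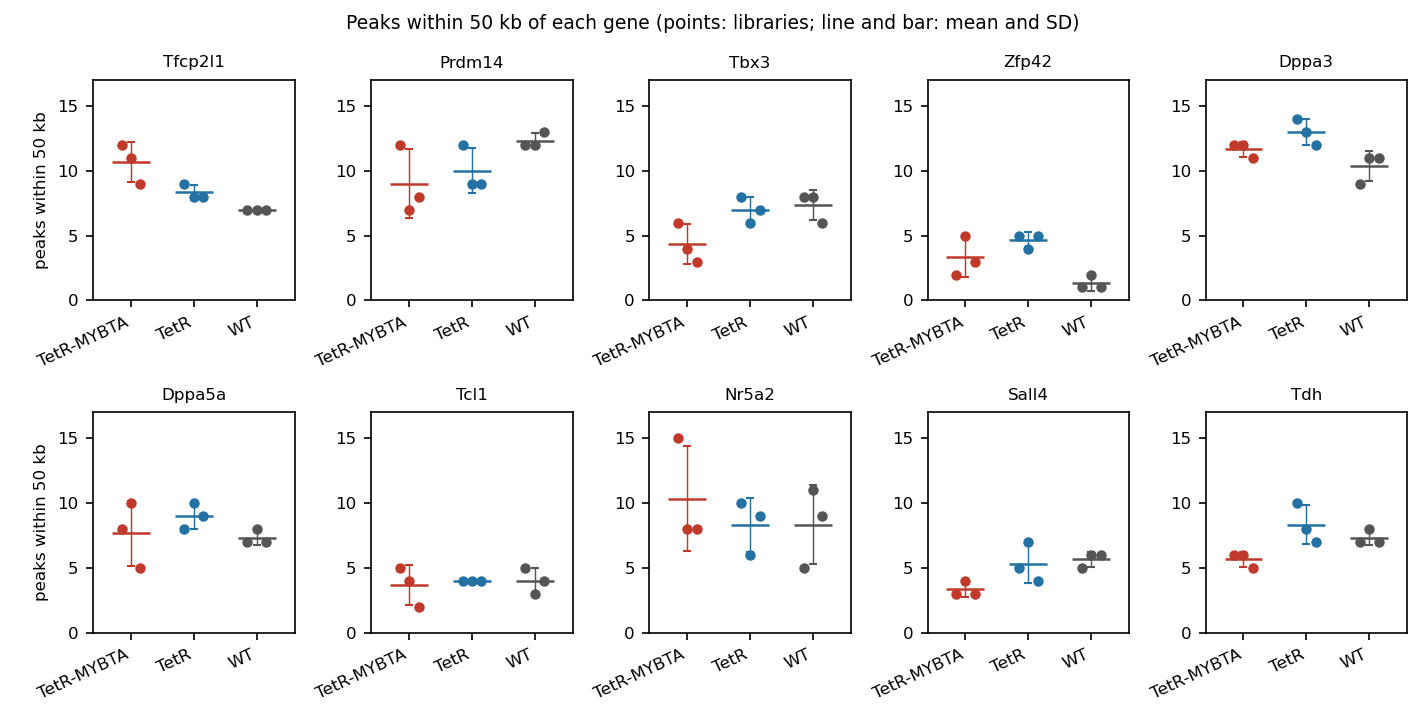
Number of peaks within 50 kb of each gene in the TetR-MYBTA, TetR and WT libraries, with points for libraries and the line and bar for the mean and SD (n = 3). Tfcp2l1 has its highest mean in TetR-MYBTA, at 9 to 12 peaks, and Zfp42 has its lowest mean in WT, at 1 or 2.

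Tfcp2l1 (gene ID 81879, chr1:118627923-118685168) encodes a CP2-family transcription factor downstream of LIF and STAT3. Its window held 12, 11 and 9 peaks in TetR-MYBTA, 9, 8 and 8 in TetR, and 7 in each WT library. The share was 1.98 ± 0.0412 in TetR-MYBTA, against 1.29 ± 0.0743 in TetR and 1.17 ± 0.0636 in WT (mean ± SD, n = 3 each), 1.54 times that of TetR and 1.69 times that of WT. The gene lies on distal chromosome 1, where peaks were more frequent in this line: chromosome 1 from 88 Mb held 7.11 ± 0.0397% of all peaks in TetR-MYBTA, against 4.59 ± 0.0128% in TetR and 4.7 ± 0.0378% in WT (mean ± SD, n = 3 each). The 5 Mb on either side of the Tfcp2l1 window held 2.0 times the share of the other 6 libraries, more than the gene's own 1.61 times. Relative to those flanks the gene was lower in TetR-MYBTA, at 0.806 times the other 6 libraries, without overlap.

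Of the 15 regions near Tfcp2l1, 7 had a peak in all 9 libraries and 6 had one in TetR-MYBTA libraries alone, none of the 6 in all 3. These 6 were absent from every TetR and WT library. A further region inside the gene, chr1:118674212-118674517, had a peak in TetR-MYBTA replicates 1 and 3 and in all 3 TetR libraries, and in 0 WT libraries. The order of rows in each list, which follows the peak caller's ranking, gives a place from 0 to 100 among the 26020 regions found in all 9 libraries, 100 being the first. For regions absent from some libraries, the place is that within the whole list. The gene-end region stood at 89.7, 80.7 and 79.2 in TetR-MYBTA, 46.6, 57.1 and 62.0 in TetR, and 64.7, 73.1 and 71.9 in WT. The TetR-MYBTA libraries were all above the others, 20.6 percentile points higher on average (exact permutation p = 0.0238, adjusted p = 0.113). A region 4.76 kb beyond the gene, chr1:118689932-118690243, averaged 89.1 ± 1.57 in TetR-MYBTA, against 75.2 ± 5.23 in TetR and 54.8 ± 16.5 in WT (mean ± SD, n = 3 each). The flanking 5 Mb held 104 regions found in all libraries, whose median place difference was 21.8, so 2 of the 7 regions near the gene stood above their surroundings.

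Tbx3 (gene ID 21386, chr5:119670534-119684724), a T-box transcription factor, had 6, 4 and 3 peaks in TetR-MYBTA, 8, 6 and 7 in TetR, and 8, 8 and 6 in WT. The share in TetR-MYBTA was 0.732 times that of TetR, with overlap, and 0.643 times that of WT, without. Against the other 6 libraries the exact permutation p was 0.0357 (adjusted p = 0.181), and in a 10 kb window the ratio was on the other side of 1, at 1.07. The flanking 5 Mb had 0.723 times the share of the other 6 libraries, close to the gene's 0.685. A region 28.1 kb from the gene, chr5:119712850-119713175, had a peak in all 3 TetR and all 3 WT libraries and in 0 TetR-MYBTA libraries, where the nearest peak was 2782 bp away. It stood at places 26.6, 51.9 and 30.9 of the TetR lists and 65.1, 77.1 and 62.4 of the WT lists. A region 13.3 kb from the gene, chr5:119656869-119657275, had a peak in 3 TetR and 2 WT libraries and in 0 TetR-MYBTA libraries, but TetR-MYBTA had a peak 184 bp from it. The gene-end region averaged place 65.8 ± 5.07 in TetR-MYBTA, against 74.4 ± 6.18 in TetR and 83.5 ± 6.12 in WT (mean ± SD, n = 3 each). It was lower in the 3 TetR-MYBTA libraries than in the 6 others, by -13.2 (exact permutation p = 0.0357, adjusted p = 0.14), and the flanks differed by -12.9.

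Nr5a2 (gene ID 26424, chr1:136842562-136960448), an orphan nuclear receptor that binds regulatory elements of Pou5f1, had 15, 8 and 8 peaks in TetR-MYBTA, 10, 6 and 9 in TetR, and 5, 11 and 9 in WT. The ranges overlapped. The share in TetR-MYBTA was 1.47 times that of TetR and 1.38 times that of WT, and the flanking 5 Mb gave the same 1.42 times against the other 6 libraries that the gene gave, a ratio of 0.997. Of the 8 regions seen in TetR-MYBTA libraries alone, 6 had a peak in 1 library, which was replicate 1 for 5 of them and replicate 2 for the other. The outer start had no peak and the inner start had one in every library, as the sequences show. The region at the inner start, chr1:136953697-136953907, stood at 94.0, 95.1 and 95.2 in TetR-MYBTA, 90.4, 92.8 and 90.4 in TetR, and 88.6, 80.1 and 89.9 in WT. All 3 TetR-MYBTA libraries were above the other 6 by 6.07 on average (exact permutation p = 0.0476, adjusted p = 0.161). A weaker region inside the gene, chr1:136939745-136940000, stood at 38.4, 28.9 and 35.6 in TetR-MYBTA, 9.62, 18.1 and 20.7 in TetR, and 1.53, 11.8 and 7.03 in WT. It differed by 22.8 (exact permutation p = 0.0119, adjusted p = 0.0828), with a median difference of 13.3 over the 183 flanking regions. A region inside the gene, chr1:136888733-136889091, had a peak in all 3 TetR libraries, in TetR-MYBTA replicate 1 and in 0 WT libraries. Tfcp2l1 and Nr5a2 are the members on distal chromosome 1.

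Sall4 (gene ID 99377, chr2:168748332-168767201), a spalt-like zinc finger protein of the ES cell network, had 3, 4 and 3 peaks in TetR-MYBTA, 5, 7 and 4 in TetR, and 5, 6 and 6 in WT. Its share was 0.762 times that of TetR, with overlap, and 0.658 times that of WT, without. The flanking 5 Mb had 0.633 times the share of the other 6 libraries, against 0.706 for the gene (exact permutation p = 0.0476, adjusted p = 0.204), and relative to its flanks the gene was at 1.12, with overlap. The gene-end region stood at 42.7, 68.0 and 44.8 in TetR-MYBTA, 75.1, 71.3 and 46.6 in TetR, and 83.7, 74.9 and 74.0 in WT. The TetR-MYBTA libraries were all below the WT libraries, by -25.7 on average, and overlapped the TetR libraries. The 86 flanking regions had a median of -21.6 for TetR-MYBTA minus WT. Inside the gene, chr2:168761219-168761472 had a peak in all 3 TetR libraries, in WT replicate 2 and in 0 TetR-MYBTA libraries. It stood at places 77.9, 76.3 and 83.7 of the TetR lists and at 67.3 of WT replicate 2. At 31.8 kb, chr2:168799024-168799236 had a peak in all 3 WT libraries and in 0 of the other 6.

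Zfp42 (gene ID 22702, chr8:43295067-43307009), also called Rex1, is a zinc finger gene widely used as a marker of the naive state. Its window held 2, 5 and 3 peaks in TetR-MYBTA, 5, 4 and 5 in TetR, and 1, 2 and 1 in WT. The share was 0.626 ± 0.274 in TetR-MYBTA, against 0.723 ± 0.123 in TetR and 0.22 ± 0.0837 in WT (mean ± SD, n = 3 each). By share the WT libraries were below every library of the lines that carry a construct, though TetR-MYBTA replicate 1, at 0.335, was close to WT replicate 2, at 0.317. The share was 2.84 times that of WT in TetR-MYBTA and 3.28 times that of WT in TetR. The counts behind these ratios are small. The flanking 5 Mb gave 1.01 for TetR against WT, so relative to the flanks the TetR ratio was 3.26, without overlap. For TetR-MYBTA against WT the ratio relative to the flanks was 2.63, and there the ranges overlapped. The regions behind the TetR ratio include chr8:43345299-43345517, 38.3 kb from the gene, and chr8:43356791-43357015, 49.8 kb from it. Each had a peak in all 3 TetR libraries and in 0 of the 6 TetR-MYBTA and WT libraries. They stood at places 51.9, 51.6 and 38.0, and at 36.0, 60.6 and 35.7, of the TetR lists. A region 24.1 kb from the gene, chr8:43331062-43331323, had a peak in all 3 TetR-MYBTA, all 3 TetR and 2 WT libraries.

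Prdm14 (gene ID 383491, chr1:13113428-13127163) encodes a PR-domain protein that represses FGF signalling and de novo methylation genes and acts in the germline. It had 12, 7 and 8 peaks in TetR-MYBTA, 12, 9 and 9 in TetR, and 12, 12 and 13 in WT. The share in TetR was 0.742 times that of WT, without overlap, and that in TetR-MYBTA overlapped both. The gene-end region stood at 5.57, 12.5 and 4.84 in TetR-MYBTA, 20.3, 22.0 and 40.4 in TetR, and 25.7, 31.2 and 15.5 in WT. Each TetR-MYBTA library was below each of the other 6, by -18.2 on average (exact permutation p = 0.0238, adjusted p = 0.113), while the flanking 101 regions differed by 0.669. The flanks of Prdm14 held 1.04 times the share of peaks. At 18.8 kb, inside Ncoa2, chr1:13146010-13146261 had a peak in 3 TetR, 2 WT and 0 TetR-MYBTA libraries, and TetR-MYBTA had a peak 23 bp from it.

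Dppa3 (gene ID 73708, chr6:122626424-122630271), also called Stella, is a maternal factor that protects methylation states in the early embryo. Its window held 12, 12 and 11 peaks in TetR-MYBTA, 14, 13 and 12 in TetR, and 9, 11 and 11 in WT. The share was 2.19 ± 0.223 in TetR-MYBTA, against 2.0 ± 0.0364 in TetR and 1.73 ± 0.129 in WT (mean ± SD, n = 3 each). It was 1.09 times that of TetR, with overlap, and 1.27 times that of WT, without (exact permutation p = 0.0357 against the other 6 libraries, adjusted p = 0.181). Relative to its flanks, whose share was 0.935 times that of the other 6 libraries, the gene was 1.25 times the other 6 libraries, without overlap, and likewise 1.16 times TetR and 1.36 times WT. By raw number there was no such rise. The mean was 11.7 peaks in TetR-MYBTA and 11.7 in the other 6 libraries, with 13.0 in TetR and 10.3 in WT.

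By place, the regions near Dppa3 were set beside their flanks without a test. The 7 regions found in all 9 libraries had a median difference of 13.5, against -2.17 over 152 flanking regions, and 6 of the 7 were above it. Not all of the 7 need belong to Dppa3. Among them chr6:122591160-122591418 lies inside Apobec1, chr6:122608498-122608725 inside Gdf3, and chr6:122669469-122669700 has Nanog as its nearest gene. The region 1.59 kb from Dppa3, chr6:122624565-122624830, stood at 90.0, 89.0 and 85.7 in TetR-MYBTA, 75.0, 80.2 and 74.1 in TetR, and 74.7, 85.5 and 71.7 in WT. Its TetR-MYBTA libraries were above the other 6 by 11.4 (exact permutation p = 0.0119, adjusted p = 0.0828, a lowest value that 3743 regions share). At 3.19 kb on the other side, chr6:122633456-122633708 averaged 56.9 ± 3.51 in TetR-MYBTA, against 42.4 ± 13 in TetR and 37.4 ± 10.4 in WT (mean ± SD, n = 3 each).

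A region 14041 bp from Dppa3, chr6:122644312-122644529, was the member region that all 3 TetR-MYBTA libraries shared and 0 of the 6 others held. It stood at places 51.2, 32.1 and 48.3 of those lists. The nearest TetR peak was 8958 bp away and the nearest WT peak 3450 bp. Farther out, chr6:122653487-122653752 at 23.2 kb had a peak in all 3 TetR libraries, in WT replicate 2 and in 0 TetR-MYBTA libraries, at places of 5.88 to 29.5 in TetR.

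Dppa5a (gene ID 434423, chr9:78367052-78368199), a KH-domain RNA-binding protein, had 8, 10 and 5 peaks in TetR-MYBTA, 8, 10 and 9 in TetR, and 7, 8 and 7 in WT, and its share in TetR-MYBTA was 1.0 times that of TetR and 1.14 times that of WT, with overlap. Its gene-end region stood at 54.4, 51.9 and 49.1 in TetR-MYBTA, 51.7, 63.9 and 60.6 in TetR, and 53.9, 77.5 and 77.6 in WT, with overlap. Tcl1 (gene ID 21432, chr12:105216753-105222737), a coactivator of AKT signalling, had 5, 4 and 2 peaks in TetR-MYBTA, 4 in each TetR library, and 5, 3 and 4 in WT. The share in TetR-MYBTA was 1.07 times that of TetR and 0.977 times that of WT, with overlap.

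Tdh (gene ID 58865, chr14:63492347-63509092) encodes threonine dehydrogenase, which mouse ES cells use to break down threonine. Its window held 6, 6 and 5 peaks in TetR-MYBTA, 10, 8 and 7 in TetR, and 7, 8 and 7 in WT, so every TetR-MYBTA library was below the other 6. The share was 1.06 ± 0.0512 in TetR-MYBTA, against 1.28 ± 0.129 in TetR and 1.23 ± 0.0472 in WT (mean ± SD, n = 3 each). Against the other 6 libraries it was 0.844 times, and the flanking 5 Mb were 0.749 times, so relative to its flanks the gene was at 1.13, with overlap, and in a 10 kb window its ratio was 1.05. A region inside the gene, chr14:63500258-63500552, stood at 66.9, 75.0 and 68.3 in TetR-MYBTA, 91.0, 90.5 and 92.0 in TetR, and 89.6, 94.2 and 80.7 in WT. The TetR-MYBTA libraries were lower without overlap, by -19.6 (exact permutation p = 0.0119, adjusted p = 0.0828), and the 59 flanking regions had a median of -9.6. Inside the gene, chr14:63494824-63495052 had a peak in all 3 TetR libraries and in 0 of the 6 TetR-MYBTA and WT libraries, and the gene-end region was at 40.3, 47.3 and 40.2 in TetR-MYBTA, 61.0, 44.3 and 61.3 in TetR, and 55.9, 71.7 and 72.6 in WT. At the gene end the TetR-MYBTA libraries were all below the WT libraries and overlapped the TetR libraries.

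Counted over all 10 genes, regions with a peak in all 3 libraries of one line and in none of another were few. TetR-MYBTA against TetR had 1 such region of 131, 0.763%, where all union regions had 1.55%. TetR against TetR-MYBTA had 8, 6.11% against 4.91%, and 6 of the 8 had no TetR-MYBTA peak within 1 kb. TetR-MYBTA against WT had 1 of 125, 0.8% against 1.45%, and WT against TetR-MYBTA had 2, 1.6% against 3.27%. TetR against WT had 5 of 127, 3.94% against 2.52%, and WT against TetR had 1, 0.787% against 1.53%. These counts are 8 or fewer and were not tested against those of all regions. A library without a peak is one in which none was called, and whether the region was closed there was not tested. Leaving out 1 library of the line that holds the peak asks for a peak in both remaining libraries of that line. Leaving out 1 of the other line asks for absence from both remaining libraries of that other line. TetR-MYBTA against TetR then had 3, 5 and 4 regions without TetR-MYBTA replicates 1, 2 and 3, and 3 and 2 without TetR replicates 1 and 2. TetR-MYBTA against WT had 4 without any 1 of the TetR-MYBTA replicates and 3 without WT replicate 2. TetR against WT had 8 without TetR replicate 1 and 8 without WT replicate 2. WT against TetR had 3 without TetR replicate 1, 3 without TetR replicate 2 and 4 without WT replicate 1. WT against TetR-MYBTA had 4 without TetR-MYBTA replicate 1, 5 without WT replicate 1 and 4 without WT replicate 3. Regions seen in 1 line alone, in any number of its libraries, were 19 for TetR-MYBTA (13.0% of the 146, against 10.4% of all union regions), 21 for TetR (14.4%, against 14.6%) and 15 for WT (10.3%, against 9.71%). Of these, 12 of TetR-MYBTA, 15 of TetR and 13 of WT had a peak in 1 library. The 19 of TetR-MYBTA lay near Nr5a2 (8 of 24 regions), Tfcp2l1 (6 of 15), Dppa3 (3), Zfp42 (1) and Dppa5a (1). On chromosome 1 from 88 Mb, where Nr5a2 and Tfcp2l1 lie, 28.2% of all regions were seen in TetR-MYBTA alone.

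By place, 7 of the 35 member regions found in all 9 libraries were higher in TetR-MYBTA than in all 6 other libraries and 3 were lower. Of the 26020 such regions, 11.7% were higher and 8.92% lower. The 7 lay near Tfcp2l1, Nr5a2 and Dppa3, whose flanking regions had median place differences of 21.8, 13.3 and -2.17. The 3 lay near Prdm14, Tbx3 and Tdh, with flank medians of 0.669, -12.9 and -9.6. The exact permutation test, adjusted over the 26020 regions, called 0 member regions and 0 regions in all at 0.05, with the same limit on p as for genes. At an unadjusted p under 0.05 it had 17 of the 35, against 29.5% of all. These 17 also include regions near Tfcp2l1 and Nr5a2. Member regions ranked high as a whole, with a median place of 63.5 against 47.3.

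**Figure D3:**
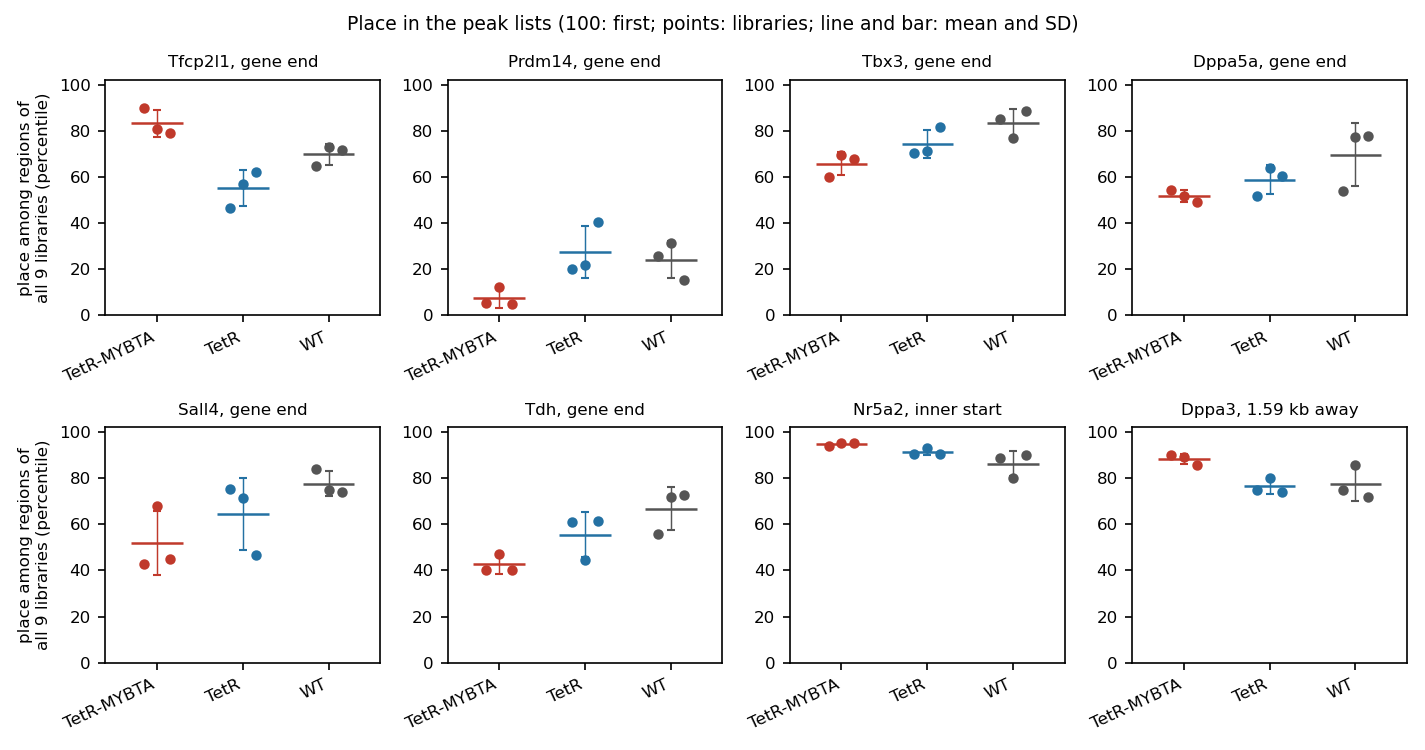
Place of gene-end and nearby regions among the 26020 regions found in all 9 libraries, with percentile on the vertical axis and points for the TetR-MYBTA, TetR and WT libraries. The Tfcp2l1 gene end stands higher in TetR-MYBTA, at 79.2 to 89.7, than in the other lines, and that of Prdm14 stands lower, at 4.84 to 12.5.

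**Figure D4:**
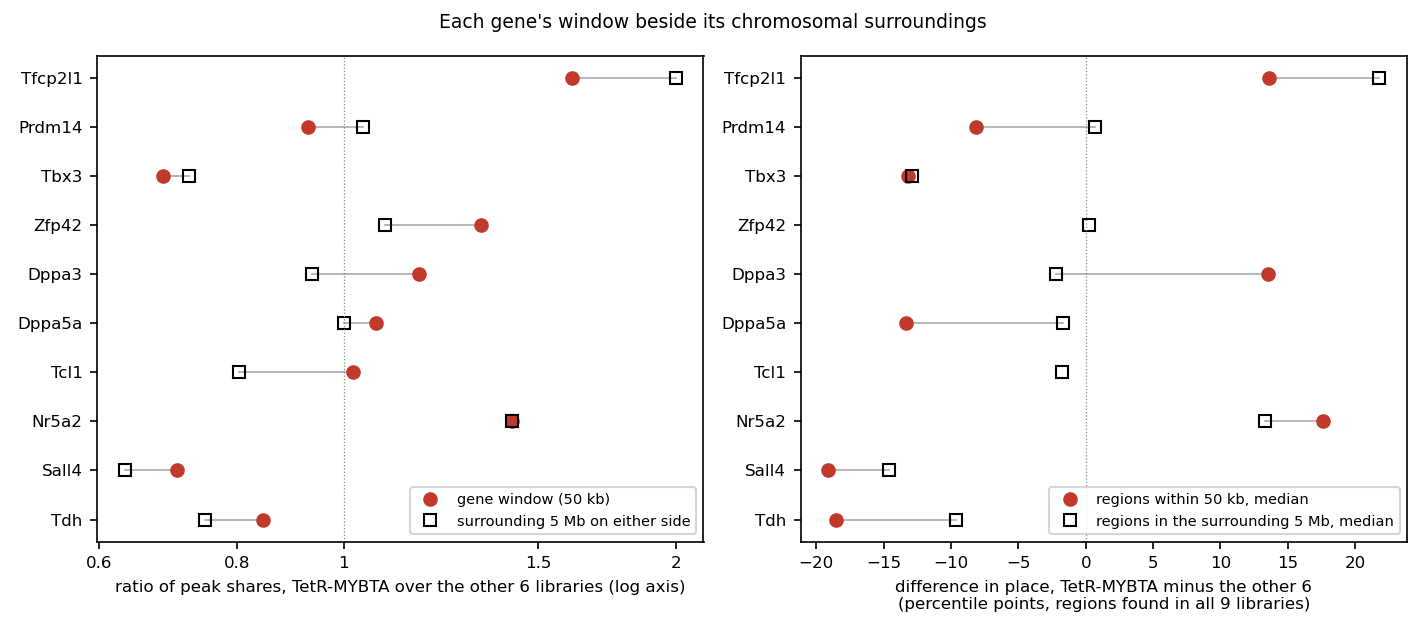
Ratio of peak shares, TetR-MYBTA over the other 6 libraries, for each gene's window (filled) and its flanking 5 Mb (open squares, log axis), and the median place difference of regions near the gene and in the flanks. Tfcp2l1 has 1.61 in its window and 2.0 in its flanks, and Dppa3 has 1.17 in its window and 0.935 in its flanks.

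Of the 22 other genes of the naive network, by peak share, 1 was higher and 4 were lower in TetR-MYBTA than in TetR. Over all genes these shares were 10.2% and 17.9%. Against WT, 0 were higher and 4 lower in TetR-MYBTA, beside 7.88% and 20.2% of all genes. In TetR 2 were higher and 4 lower than in WT, beside 8.63% and 11.5%. Against all 6 other libraries 0 were higher and 2 lower in TetR-MYBTA, beside 4.47% and 10.2% of all genes. The adjusted test was passed by 0 of the 22. Tfap2c, an AP-2 transcription factor, had 5, 5 and 3 peaks in TetR-MYBTA, 8, 9 and 7 in TetR, and 10, 12 and 12 in WT, a ratio of 0.508 against the other 6 libraries (exact permutation p = 0.0238, adjusted p = 0.15). Utf1, a chromatin-bound ES cell factor, had 8, 7 and 6 in TetR-MYBTA, 13, 11 and 12 in TetR, and 13, 12 and 12 in WT, a ratio of 0.662 (exact permutation p = 0.0119, adjusted p = 0.112). Both lay below the range of the other libraries, and neither passed the adjusted test. The median ratio over the 22 genes was 0.926, against 1.04 over the 10 members and 0.952 over all tested genes, which is given as a description.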

How the data were processed

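ATAC-seq was run on 9 libraries, put into 3 lines by their titles. The submitters' processing notes list the aligner Bowtie2, the trimmer Trim Galore 0.6.10, the peak caller HOMER 4.11, deepTools 3.5.5, Picard, FastQC and the mm10 build. The Tn5 shift of reads and any removal of blacklisted regions are not given in the sources used here. HOMER called the peaks of each library on its own, without a control, at a false discovery rate of 0.001, per the file headers. The recorded settings also asked for a 4-fold excess over the surrounding 10 kb, at a Poisson p of 0.0001. A missing peak can therefore reflect the local surroundings as well as the region. Every peak has the score 1 in the deposited lists, so the order of rows, which follows the caller's peak numbers (lowest rank correlation 0.9898), gave each peak's place. Starts were written counting from 1. No pair of lists was identical.

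Genes and coordinates are those of RefSeq on GRCm38.p6, in a table that gives no exons, so exonic and intronic positions were not used here. Sequences were matched for 4 of the 10 genes. Regions joined peaks sharing at least 1 bp, and windows reached 50 kb. The measures were the share of a library's peaks in a window, presence of a region, and percentile among regions found in all libraries. The 3 TetR-MYBTA libraries were tested against the other 6 by a two-sided exact permutation test, with Benjamini-Hochberg adjustment over all genes or regions. The named members were all 10; named regions were those at gene ends and those with a peak in all 3 libraries of one line and none of another, and further regions were named after their values were seen. Of the other network genes, at most 4 in each direction whose ranges did not overlap were named. Members and lists were chosen with earlier results of these data known. The labels do not state separate cultures, so the p-values reflect spread among libraries that may be only technical. The comparison of places with flanking regions was chosen after seeing the data. Alternatives tried were a 10 kb window, the upper 50% of lists, equal list lengths, joining of peaks by centres within 100 bp or gaps up to 200 bp, 2.5 kb for gene ends, no peak within 1 kb, other denominators, raw numbers, presence in at least 2 of 3 libraries, leaving out each library and a replicate block. Software was scipy 1.17.1, pandas 2.3.3, matplotlib 3.10.9 and numpy 2.4.6 under Python 3.11.15.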

Additional observations from a re-analysis of the deposited data

How the results depend on the processing

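No member gene or region was called under any setting tried, with lowest adjusted p-values of 0.104 to 0.232 for genes and 0.0812 to 0.183 for regions. The few splits of the exact permutation test limit how small p can be, and a call needs a large part of all genes or regions at that limit. The lack of calls across settings is therefore no evidence that the lines are alike. Other rules for joining peaks moved no count by over 1.5 times. Peak numbers per window are small, which limits every ratio. The summed share of TetR-MYBTA over TetR, over WT, and of TetR over WT was 1.15, 1.23 and 1.07 in a 10 kb window and 0.893, 0.981 and 1.1 as raw numbers. The first pair was 0.989 and 1.02 with lists of equal length, and 0.979 and 0.997 with peaks of the same chromosome as denominator. TetR over WT was 1.05 with the upper 50% of each list and 1.05 with 5 Mb flanks. Without single libraries the sums ranged over 1.04 to 1.1, 1.06 to 1.1 and 0.989 to 1.04. Regions of one line absent from another, in the order TetR-MYBTA without TetR, TetR without TetR-MYBTA, TetR-MYBTA without WT, WT without TetR-MYBTA, TetR without WT and WT without TetR, numbered 10, 13, 10, 7, 11 and 4 with a peak in at least 2 of 3 libraries, and 0, 2, 0, 0, 3 and 0 within 10 kb. Without single libraries they ranged over 1 to 5, 9 to 11, 1 to 4, 2 to 5, 5 to 8 and 1 to 4. With the upper 50% of each list, the last 5 were 3, 4, 1, 1 and 0, and with lists of equal length the last 2 were 3 and 0. Ratios to the other 6 libraries changed side for Dppa5a (0.913) and Tcl1 (0.762) with equal lists, for Tcl1 (0.474) with the upper 50%, for Prdm14 (1.26), Tbx3 (1.07) and Tdh (1.05) in 10 kb, for Tfcp2l1 (0.806), Nr5a2 (0.997), Sall4 (1.12) and Tdh (1.13) over 5 Mb flanks, and for Dppa5a (0.939) and Tcl1 (0.917) as raw numbers; the cause was not tested. The ratio for Dppa3 was 1 as raw numbers. Without single libraries the ratios ranged over 0.833 to 1.05 for Prdm14, 0.934 to 1.18 for Dppa5a and 0.884 to 1.19 for Tcl1. Place differences ranged over -9.45 to 1.28 at chr9:78395641-78395901 near Dppa5a and -9.86 to 0.334 at chr1:13074631-13074872 near Prdm14. With the replicate number as a block, 0 genes and 0 regions were called, and the smallest p it allows is 0.037. Libraries with the same number did not deviate together (r from -0.055 to 0.094 over 9 pairs), so the numbers were not taken to pair them.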
